A study of Homo sapiens with 3 samples.

Results

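The genes described here are known long non-coding RNAs (lncRNAs) and the host genes of small RNAs. They were chosen by name: symbols beginning with SNHG, symbols made of MIR, a number and HG, and 23 further lncRNAs. In all, 59 of the 18856 genes listed in at least 1 library met this rule, of which 21 were hosts of small nucleolar RNAs (snoRNAs), 19 were hosts of microRNAs (miRNAs) and 19 were other lncRNAs. The study tested whether a Low-Input, Equal-Amplification (LIEA) library for the Ion Torrent sequencer quantifies transcripts from very little RNA. It used HBE, a cell line of human bronchial epithelium, and A549, a line of lung adenocarcinoma. For every library 10 pg of polyA+ mRNA, diluted from a bulk preparation, was the input. HBE was sequenced by LIEA and by Smart-seq2 (oligo-dT priming, cDNA amplified as whole molecules, Illumina), and A549 by LIEA. No cell line was treated. Here 1 library was used for each of these 3 conditions, so no p-value or standard error is given. The intervals below are exact 95% intervals that cover counting error only. The paper also reports a further biological replicate of HBE LIEA, LIEA of RNA from a small number of counted HBE cells, and bulk mRNA-seq. None of these is used here. Both comparisons, A549 against HBE and LIEA against Smart-seq2, use the same HBE LIEA library.

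A lncRNA is a transcript that is not translated into a protein of known function. Some, such as MALAT1 in nuclear speckles and NEAT1, the scaffold of paraspeckles, stay in the nucleus, whereas others work in the cytoplasm or act on imprinted or HOX gene clusters. A host gene carries small RNAs within its transcript. The SNHG transcripts are spliced, the snoRNAs are released from their introns, and the spliced remainder is often degraded by nonsense-mediated decay when it is translated. A miRNA host transcript contains one or more hairpins that Drosha and Dicer cut into mature miRNAs, whose seed (bases 2 to 8) pairs with target mRNAs.

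The level of a host transcript is not the level of the small RNA made from it, and the mature miRNAs were not measured here. For 5 members that were at least 2-fold apart between the cell lines, picked after their values were seen, 1 mature miRNA of the hairpin inside each is printed 5′ to 3′ with the seed in capitals (RefSeq, GRCh38.p14), to show which small RNAs these host transcripts carry. The hosts are, in order, MIR205HG (miRNA at chr1:209432166-209432187, plus strand), MIR31HG (chr9:21512158-21512178, minus), MIR22HG (chr17:1713914-1713935, minus), MIR210HG (chr11:568112-568133, minus) and H19 (chr11:1996800-1996822, minus).
hsa-miR-205-5p: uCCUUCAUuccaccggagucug
hsa-miR-31-5p: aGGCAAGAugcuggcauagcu
hsa-miR-22-3p: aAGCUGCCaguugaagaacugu
hsa-miR-210-3p: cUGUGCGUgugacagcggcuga
hsa-miR-675-5p: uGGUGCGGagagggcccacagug
The 9 mature miRNAs of these 5 hairpins had 9 different seeds. Of the hairpins, the files listed a row for 1, MIR205, at 2.13 log2 rpkM in A549 LIEA and 4.05 in HBE Smart-seq2 and with no entry in HBE LIEA. Its host MIR205HG was high in both HBE libraries. Levels of so short a gene can rest on a few reads, so the orders of hairpin and host were not compared. In the GRCh37 annotation 39 small RNAs were found inside 23 members. This count is incomplete. It does not include MIR205, MIR22 and MIR675, and no small RNA was found inside SNHG1, SNHG5 or MIR17HG, among other hosts. Of these 39, 16 in 11 hosts were listed, none with more than 16 reads in a library.

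The 3 libraries held 4605855 (HBE LIEA), 4154060 (A549 LIEA) and 9845150 (HBE Smart-seq2) mapped reads, recovered from the deposited values as described in the methods. Levels are in rpkM, reads per kilobase of transcript per 1000000 mapped reads, and summed reads of a group are in RPM, reads per 1000000 mapped reads. Epithelial markers (EPCAM, CDH1, KRT8, KRT18 and KRT19) all had at least 10 reads in every library and summed to 1700 rpkM in HBE LIEA, 8530 in A549 LIEA and 3442 in HBE Smart-seq2. KRT8 and KRT18 made up the higher sum of A549, while EPCAM, CDH1 and KRT19 were lower there than in HBE LIEA, at log2 ratios of -2.97, -1.56 and -0.46. Basal epithelial markers summed to 624, 10.9 and 465 rpkM, mostly KRT5 in the HBE libraries. Among the markers of other cells, 1 of 3 leukocyte genes (CD14) and 1 of 4 fibroblast genes (COL1A1) reached 10 reads. All 3 endothelial genes did so in HBE LIEA, 0 in A549 LIEA and 2 in HBE Smart-seq2, with CDH5 at 10.8, 0 and 8.86 rpkM. Their part in the results below was not tested. In bulk RNA of this kind, fewer cells that use a gene and less of its RNA in each cell cannot be told apart.

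Most members were listed in each library. The number listed was 55 in HBE LIEA, 54 in A549 LIEA and 54 in HBE Smart-seq2, and 50 were listed in all 3. At least 10 reads, the number from which the study counted a gene as quantified, were found for 42, 42 and 46 members, and 37 reached it in all 3 libraries. These are 76.4, 77.8 and 85.2% of the members listed, beside 76.8, 75.5 and 78.6% of all genes listed. The Smart-seq2 library was 2.14 times as deep as LIEA of HBE. At the depth of the latter its reads would leave 43 members with at least 10 reads. For a count of 0 a fixed floor of 3 reads was used, which is 0.651 RPM in HBE LIEA, 0.722 in A549 LIEA and 0.305 in HBE Smart-seq2.

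Together the members took 0.639% of the mapped reads in HBE LIEA (29423 reads), 0.378% in A549 LIEA (15694 reads) and 0.945% in HBE Smart-seq2 (93004 reads). A few transcripts made up most of this. In HBE LIEA, NEAT1 held 29.3% of the members' reads, H19 22.4% and MALAT1 18.3%. MALAT1 alone held 43.7% in A549 LIEA and 68.7% in HBE Smart-seq2. Without MALAT1 and NEAT1 the shares were 0.334, 0.135 and 0.288%, so the order of the 2 HBE libraries turned. SnoRNA hosts took 772 RPM in HBE LIEA (interval 747 to 798), 572 in A549 LIEA (550 to 596) and 1454 in HBE Smart-seq2 (1430 to 1477). The miRNA hosts took 160 (148 to 172), 148 (137 to 160) and 192 (183 to 201) RPM. Among members with at least 10 reads the median level was 13.01 rpkM in HBE LIEA, 11.8 in A549 LIEA and 18.9 in HBE Smart-seq2, beside 9.63, 8.60 and 7.15 rpkM over all genes with at least 10 reads.

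**Figure D1:**
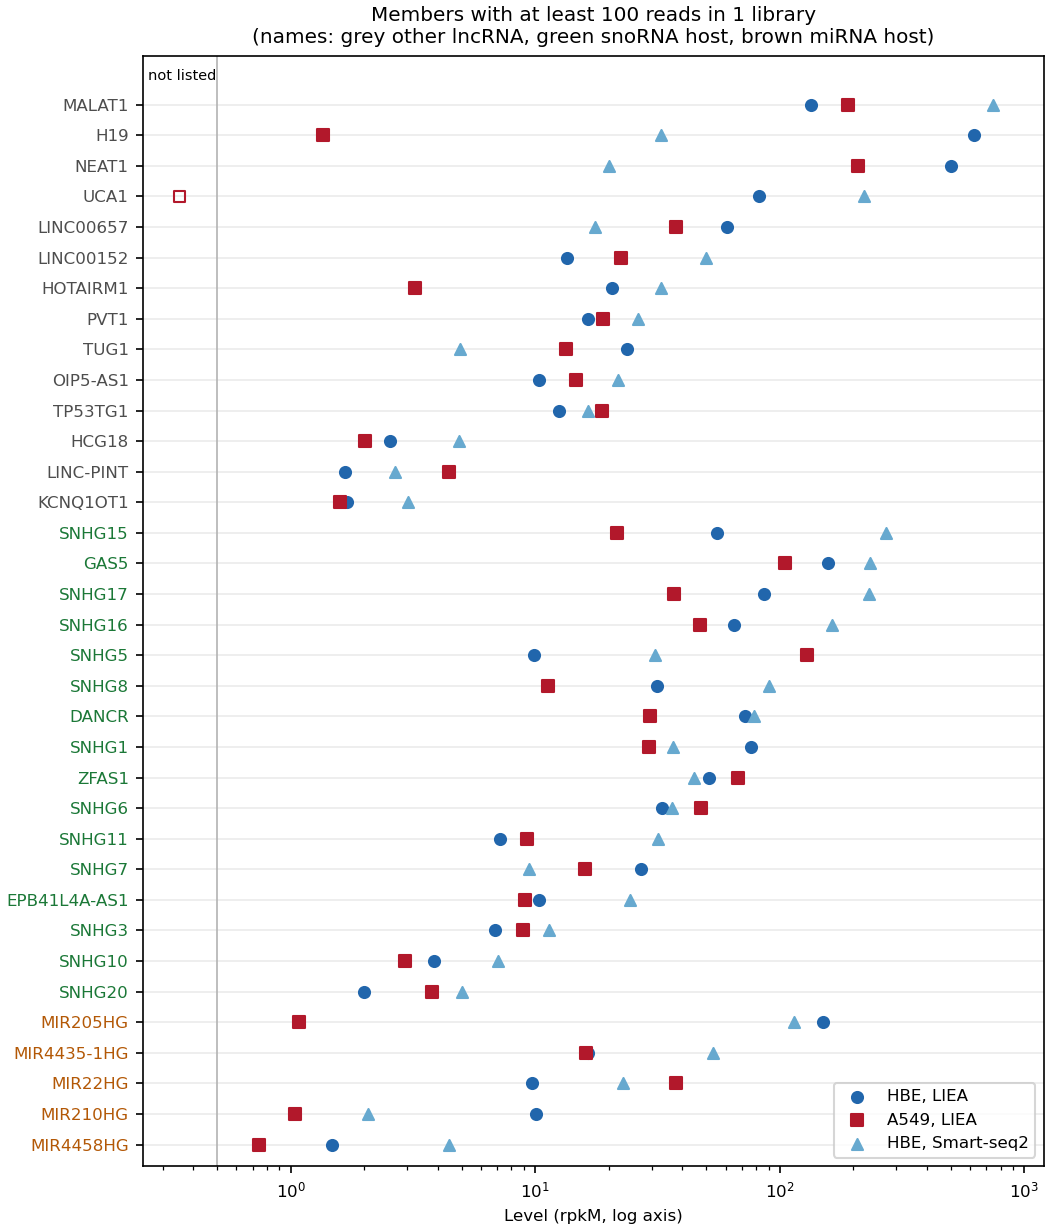
Level of each of the 35 members with at least 100 reads in at least 1 library, in rpkM on a log axis, 1 point per library (circle HBE LIEA, square A549 LIEA, triangle HBE Smart-seq2; open symbol, not listed). H19, UCA1 and MIR205HG are far lower in A549 than in both HBE libraries, and NEAT1 and MALAT1 swap places between the 2 methods.

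The plot of levels by library shows that 35 members had at least 100 reads somewhere. Of these, 8 were highest in HBE LIEA, 6 in A549 LIEA and 21 in HBE Smart-seq2. This filter favours the deepest library: 34 members reached 100 reads in HBE Smart-seq2, 20 in HBE LIEA and 17 in A549 LIEA. The same count over all genes is not given, so nothing particular to the members is read from it. MALAT1 and NEAT1 held the most reads of the nuclear lncRNAs. MALAT1 (chr11:65265111-65275544, plus strand, GRCh37, 1 exon) stood at 134 rpkM in HBE LIEA (5393 reads), 190 in A549 LIEA (6865 reads) and 746 in HBE Smart-seq2 (63907 reads). NEAT1 (chr11:65190245-65213011, plus strand), its neighbour on the same strand, stood at 502 rpkM (8628 reads), 208 (3235 reads) and 20.1 (739 reads). The length recovered for NEAT1 was 3735 nt, far short of the span of the gene. NEAT1 was the higher of the pair in both LIEA libraries and MALAT1 in Smart-seq2. Among all genes by rpkM, NEAT1 had rank 108 in HBE LIEA, 274 in A549 LIEA and 3649 in HBE Smart-seq2, and MALAT1 had rank 453, 305 and 76. MIAT, another nuclear lncRNA, was low: 3 reads in HBE LIEA, 71 in A549 LIEA (1.68 rpkM) and 7 in HBE Smart-seq2.

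The imprinted lncRNAs differed widely from each other. H19 (chr11:2016396-2025782, minus strand), expressed from the maternal allele and usually repressed after birth, reached 621 rpkM in HBE LIEA (6601 reads), the 84th highest gene there. It stood at 1.36 rpkM in A549 LIEA (13 reads) and 32.8 in HBE Smart-seq2 (746 reads). MEG3, which is also maternally expressed, had 2 reads in HBE LIEA, 49 in A549 LIEA (1.22 rpkM) and 8 in HBE Smart-seq2. KCNQ1OT1, the antisense transcript that silences its cluster on the paternal allele, was nearly level between the lines in LIEA and higher in Smart-seq2, at 1.70, 1.59 and 3.03 rpkM (716, 604 and 2737 reads over a recovered length of 91671 nt). For the HOX cluster, HOTAIRM1 from the HOXA end stood at 20.6 rpkM in HBE LIEA (99 reads), 3.23 in A549 LIEA (14 reads) and 32.8 in HBE Smart-seq2 (337 reads), while HOTAIR from the HOXC cluster had 2 reads in HBE LIEA and was not listed elsewhere.

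Among the lncRNAs named for cancer, UCA1 (urothelial cancer associated 1; chr19:15939016-15947138, plus strand) was abundant in the bronchial line, with 81.9 rpkM in LIEA (873 reads) and 221 in Smart-seq2 (5026 reads). It was not listed in A549. PVT1, the neighbour of MYC, was similar in both LIEA libraries and higher in Smart-seq2, at 16.5, 18.8 and 26.3 rpkM (129, 133 and 440 reads). TP53TG1, a p53 target, stood at 12.6, 18.7 and 16.5 rpkM (41, 55 and 115 reads). CRNDE (11, 15 and 39 reads) and CCAT1 (9, 10 and 29 reads) were low in all 3 libraries.

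The remaining lncRNAs were expressed in each library. LINC00657, now named NORAD, binds Pumilio proteins in the cytoplasm, and stood at 61.1 rpkM in HBE LIEA (1504 reads), 37.5 in A549 LIEA (833 reads) and 17.6 in HBE Smart-seq2 (928 reads). TUG1, which the GRCh37 annotation used here types as protein-coding, had the same order at 23.7, 13.4 and 4.91 rpkM (828, 423 and 367 reads). OIP5-AS1 (10.3, 14.6 and 21.8 rpkM; 90, 115 and 407 reads) and HCG18 (2.56, 2.02 and 4.89 rpkM; 100, 71 and 408 reads) were highest in Smart-seq2. LINC-PINT, which is induced by p53, was highest in A549 at 4.43 rpkM (120 reads), against 1.67 in HBE LIEA (50 reads) and 2.68 in HBE Smart-seq2 (172 reads). LINC00152 (now CYTOR) had 13.5, 22.4 and 49.8 rpkM (50, 75 and 395 reads), and MIR4435-1HG (now MIR4435-2HG) had 16.4, 16.1 and 53.5 rpkM (60, 53 and 418 reads). Transcripts of these 2 genes match at 99.1% identity over 6657 nt, so their reads may have been divided between them in any proportion. LINC00657 likewise matches OVCH1-AS1 at 95.9% over 4614 nt, but OVCH1-AS1 had at most 0.39 log2 rpkM.

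All 21 snoRNA hosts were listed in every library. GAS5 (12 exons, chr1:173827697-173838020, minus strand), whose transcript accumulates when growth stops, was the highest of them in HBE LIEA at 157 rpkM (457 reads), with 106 in A549 LIEA (277 reads) and 234 in HBE Smart-seq2 (1457 reads). SNHG17 had 85.9, 36.9 and 231 rpkM (469, 182 and 2700 reads), and SNHG16 had 65.3, 47.0 and 164 rpkM (763, 496 and 4098 reads). SNHG15 had 55.2, 21.6 and 271 rpkM (204, 72 and 2142 reads). These 4 were all lowest in A549 LIEA and highest in HBE Smart-seq2, and so were DANCR (72.4, 29.6 and 78.6 rpkM; 285, 105 and 662 reads) and SNHG8 (31.6, 11.3 and 90.6 rpkM; 90, 29 and 552 reads).

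Other snoRNA hosts had different orders. SNHG1 was highest in HBE LIEA, with 76.1 rpkM there, 29.1 in A549 LIEA and 36.7 in HBE Smart-seq2 (392, 135 and 404 reads). SNHG7 was too, with 27.2, 15.9 and 9.41 rpkM (270, 143 and 200 reads). ZFAS1 was nearly level at 51.6, 67.2 and 44.7 rpkM (239, 281 and 443 reads), as was SNHG6 at 33.1, 47.4 and 36.4 rpkM (72, 93 and 169 reads). SNHG5 (chr6:86360209-86388650, minus strand) stood apart as the highest snoRNA host of A549, with 9.85 rpkM in HBE LIEA (23 reads), 130 in A549 LIEA (273 reads) and 30.9 in HBE Smart-seq2 (154 reads). At lower levels, the reads of HBE LIEA, A549 LIEA and HBE Smart-seq2 were 36, 42 and 339 for SNHG11 (7.19, 9.30 and 31.7 rpkM), and 57, 45 and 287 for EPB41L4A-AS1 (10.4, 9.07 and 24.4 rpkM). They were 74, 87 and 262 for SNHG3 (6.85, 8.93 and 11.3 rpkM), 35, 24 and 136 for SNHG10 (3.88, 2.95 and 7.04 rpkM) and 20, 34 and 107 for SNHG20 (2.002, 3.77 and 5.01 rpkM). These 5 were each highest in Smart-seq2. SNHG4, SNHG9, SNHG12, SNHG21 and SNHG22 reached at least 10 but fewer than 100 reads, with a highest count of 72 reads for SNHG12 in Smart-seq2.

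Of the 19 miRNA hosts, 5 had at least 100 reads in a library. MIR205HG (chr1:209602162-209606193, plus strand), host of a miRNA known to repress ZEB1 and ZEB2, stood at 151 rpkM in HBE LIEA (309 reads), 1.08 in A549 LIEA (2 reads) and 114 in HBE Smart-seq2 (500 reads). MIR210HG, whose miRNA responds to hypoxia, had 10.1, 1.05 and 2.07 rpkM (107, 10 and 47 reads). MIR22HG was highest in A549, with 9.73 rpkM in HBE LIEA, 37.6 in A549 LIEA and 23.0 in HBE Smart-seq2 (119, 415 and 600 reads). MIR4435-1HG is given above, and MIR4458HG had 1.47, 0.742 and 4.45 rpkM (22, 10 and 142 reads). Hosts with at least 10 but fewer than 100 reads were MIR31HG (5, 58 and 7 reads), MIR600HG (72, 33 and 31), MIR100HG (19, 7 and 55), MIR17HG, the host of the miR-17 cluster (15, 11 and 53), and MIR181A2HG (2, 0 and 20). Under 10 reads in every library were HOTAIR and 9 miRNA hosts: MIR133A1HG, MIR137HG, MIR155HG, MIR181A1HG, MIR202HG, MIR4500HG, MIR4697HG, MIR497HG and MIR503HG. At this depth their levels could not be compared.

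The first comparison asks how A549 and HBE differ within LIEA. H19, UCA1, MIR205HG, MIR210HG and HOTAIRM1 were lower in the adenocarcinoma line, and SNHG5, MIR22HG and LINC-PINT were higher. NEAT1 was 2.41-fold lower, whereas MALAT1 was 1.41-fold higher. Of 47 members with at least 10 reads in at least 1 of these 2 libraries, 7 were at least 2-fold higher in A549 and 13 at least 2-fold lower. Over all 13654 genes so compared, 20.4% were at least 2-fold higher and 21.0% at least 2-fold lower. The members' shares were 14.9 and 27.7%, and their median log2 ratio was -0.30 beside -0.13 over all genes. The filter favours a difference in members that passed it through 1 library only. Of the 37 members with at least 10 reads in both libraries 3 were higher and 9 lower, beside 13.4 and 17.3% of 11302 genes under the same filter. In this comparison 12 members had an interval wholly beyond 2-fold, 5 higher and 7 lower, beside 13.4 and 11.9% of all genes by the same criterion.

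**Figure D2:**
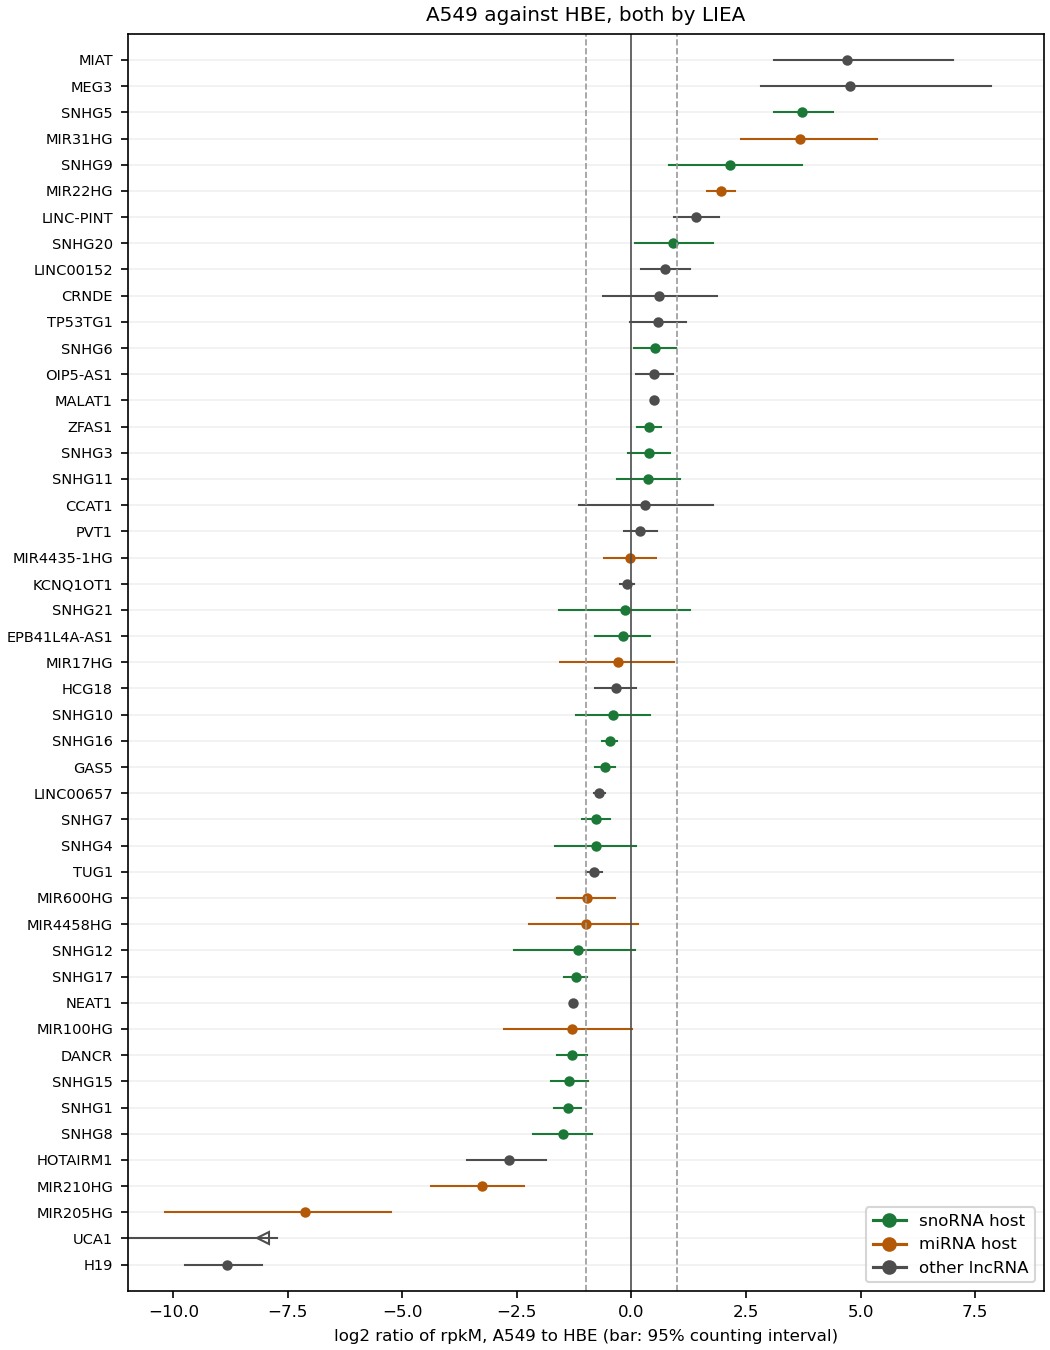
log2 ratio of rpkM, A549 to HBE, both by LIEA, for the 47 members with at least 10 reads in at least 1 of the 2 libraries. Bars are 95% counting intervals from 1 library each, dashed lines mark 2-fold, and the open triangle of UCA1 is a bound for its 0 reads in A549. H19, UCA1 and MIR205HG lie at the low end, and MIAT, MEG3, SNHG5 and MIR31HG at the high end.

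The ratios by cell line, plotted in order of size, had H19 at the low end and MIAT and MEG3 at the high end. H19 was 458-fold lower in A549 (log2 ratio -8.84, interval -9.75 to -8.06). UCA1 had 873 reads against 0 and was at least 262-fold lower, taking 3 reads as the floor in A549 (the exact interval of its log2 ratio ends at -7.73). MIR205HG had 309 reads against 2, a log2 ratio of -7.12 (interval -10.18 to -5.26). The Smart-seq2 library of HBE held these 3 at 32.8, 221 and 114 rpkM, so they were above their A549 LIEA level in both HBE libraries. The basal marker KRT5 moved in the same direction, with 552 rpkM in HBE LIEA, 1.88 in A549 LIEA and 407 in HBE Smart-seq2, and whether it bears on these lncRNAs was not tested. MIR210HG was lower in A549 by a log2 ratio of -3.27 (interval -4.37 to -2.34) and HOTAIRM1 by -2.67 (-3.60 to -1.86). In HBE Smart-seq2 MIR210HG stood at 2.07 rpkM and HOTAIRM1 at 32.8, against 1.05 and 3.23 in A549 LIEA. NEAT1, lower in A549 within LIEA, stood at 20.1 rpkM in HBE Smart-seq2 against 208 in A549 LIEA, the opposite order.

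In the other direction, SNHG5 was 13.2-fold higher in A549 (log2 ratio 3.72, interval 3.10 to 4.40). MIR22HG had a log2 ratio of 1.95 (1.65 to 2.26) and LINC-PINT of 1.41 (0.92 to 1.92). These 3 had at least 10 reads in both lines. MEG3 (2 against 49 reads, log2 ratio 4.76, interval 2.83 to 7.85), MIAT (3 against 71 reads, 4.71, 3.11 to 7.03) and MIR31HG (5 against 58 reads, 3.68, 2.38 to 5.36) had few reads in HBE. SNHG9 had 6 against 24 reads and a log2 ratio of 2.15 (0.82 to 3.73).

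Of 20 snoRNA hosts compared between the lines, 7 had a log2 ratio above 0, SNHG5 among them, and 13 below 0, with a median of -0.43. All genes also leaned below 0, with 6170 above and 7484 below. Of the 20 hosts, 12 stayed within 2-fold. In A549, 2 were at least 2-fold higher (SNHG5 and SNHG9) and 6 at least 2-fold lower, or 10 and 30%, beside 20.4 and 21.0% of all genes. The 6 were SNHG8 (-1.48), SNHG1 (-1.39, interval -1.68 to -1.10), SNHG15 (-1.35, -1.76 to -0.96), DANCR (-1.29, -1.63 to -0.96), SNHG17 (-1.22) and SNHG12 (-1.17). GAS5 and ZFAS1 stayed within 2-fold, at -0.57 and 0.38. The 9 miRNA hosts held 2 higher and 3 lower members (22.2 and 33.3%), with a median of -0.98. The 18 other lncRNAs held 3 higher and 4 lower (16.7 and 22.2%), with a median of 0.25. These counts are descriptions and were not tested. Of the 47 members, 17 had an interval that included a ratio of 1, among them PVT1, KCNQ1OT1 and HCG18. The matching count over all genes is not given, so nothing particular to the members is read from it.

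The second comparison asks how the level of a transcript depends on the method, in RNA of 1 cell line. Most members had a lower share of the reads in LIEA than in Smart-seq2, MALAT1 and SNHG15 among them, but NEAT1 and H19 were higher in LIEA by more than 18-fold. Of 46 members with at least 10 reads in at least 1 HBE library, 8 were at least 2-fold higher in LIEA and 18 at least 2-fold lower, and 34 had a ratio below 1. Over all 13564 genes so compared, 28.5% were at least 2-fold higher and 21.7% at least 2-fold lower, against 17.4 and 39.1% of the members. Among the 13564 genes, 6645 had a ratio below 1 and 6919 above 1. The median log2 ratio of the members was -0.73 beside 0.04 over all genes. Intervals of 7 members lay wholly above 2-fold higher and of 10 wholly beyond 2-fold lower, beside 21.2 and 12.1% of all genes by the same criterion. The methods differ in fragmentation, priming, amplification, sequencer and the error setting of the aligner all at once, which cannot be told apart here.

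**Figure D3:**
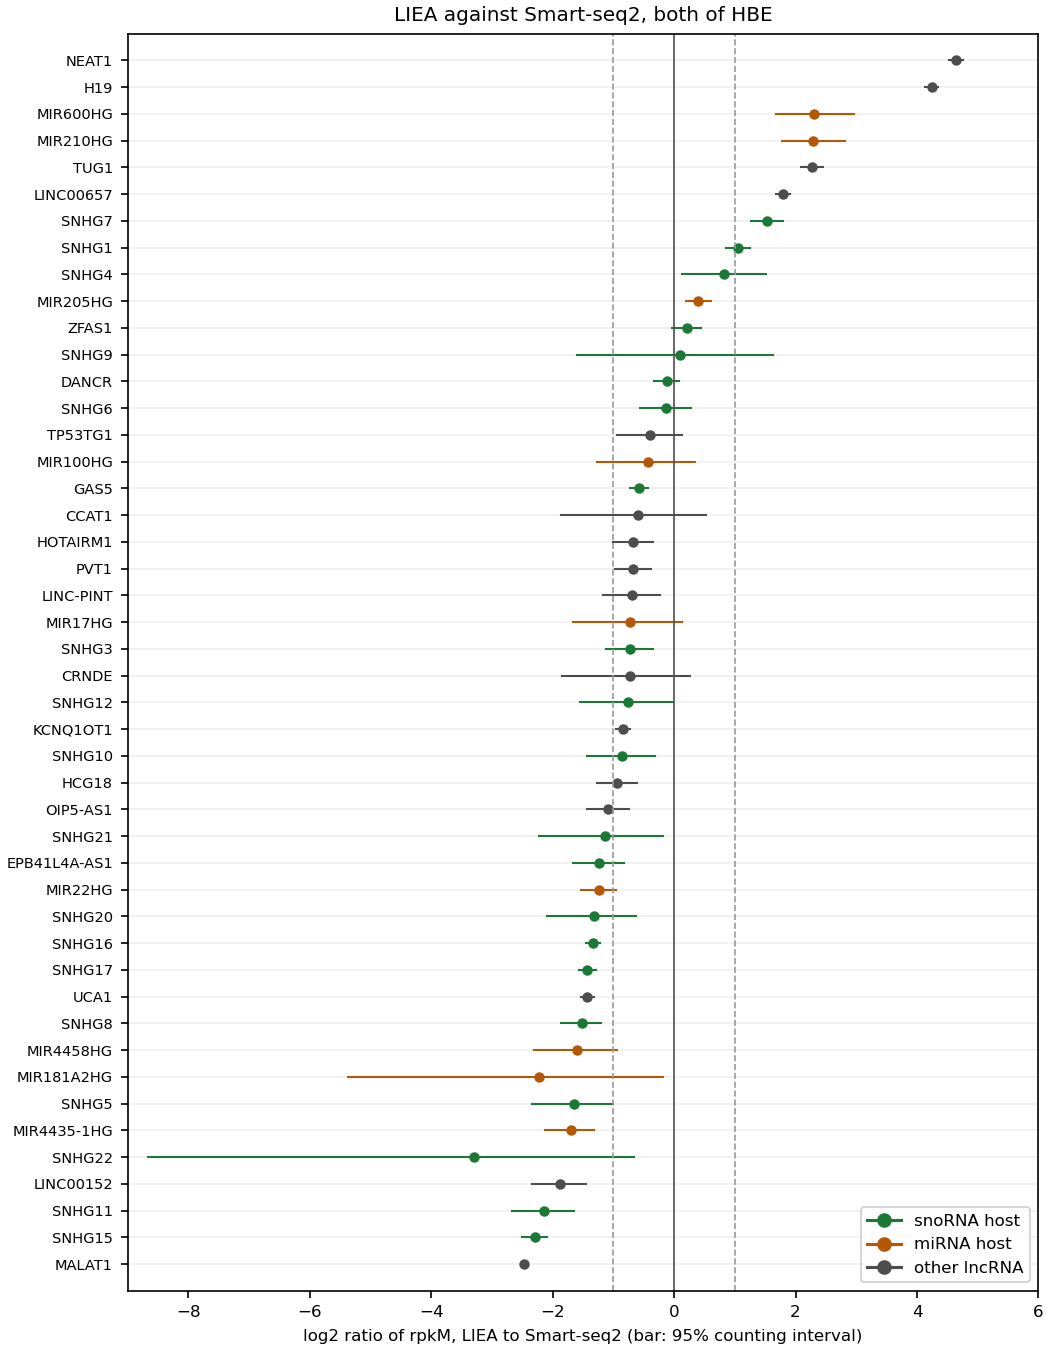
log2 ratio of rpkM, LIEA to Smart-seq2, both of HBE, for the 46 members with at least 10 reads in at least 1 of the 2 libraries. Bars are 95% counting intervals from 1 library each and dashed lines mark 2-fold. NEAT1 and H19 stand apart at the high end, MALAT1 lies at the low end, and 34 of the 46 members lie left of 0.

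NEAT1 was 24.96-fold higher in LIEA (log2 ratio 4.64, interval 4.53 to 4.75) and H19 18.9-fold higher (4.24, 4.13 to 4.35). MALAT1 was 5.54-fold lower (-2.47, -2.51 to -2.43). The plot of the ratios by method shows NEAT1 and H19 apart from all other members. MIR210HG (2.28, interval 1.78 to 2.81), TUG1 (2.27, 2.09 to 2.45), LINC00657 (1.79, 1.67 to 1.91), MIR600HG (2.31), SNHG7 (1.53) and SNHG1 (1.05) were the other members at least 2-fold higher in LIEA. On the lower side were SNHG15 (-2.30, interval -2.51 to -2.09), SNHG11 (-2.14, -2.68 to -1.64), LINC00152 (-1.89, -2.34 to -1.46) and MIR4435-1HG (-1.70, -2.12 to -1.31). UCA1 was lower too at -1.43 (-1.53 to -1.33). MIR205HG, by contrast, differed little between methods (0.40, 0.19 to 0.61).

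The snoRNA hosts as a class held 2 members at least 2-fold higher in LIEA (SNHG7 and SNHG1) and 10 at least 2-fold lower out of 21. These are 9.52 and 47.6%, beside 28.5 and 21.7% of all genes. The median log2 ratio of the class was -0.86. Besides SNHG15 and SNHG11, the 10 included SNHG5 (-1.65), SNHG8 (-1.52), SNHG17 (-1.43), SNHG16 (-1.33), SNHG20 (-1.32) and EPB41L4A-AS1 (-1.24). DANCR (-0.12), SNHG6 (-0.13) and ZFAS1 (0.21) were near a ratio of 1. The 9 miRNA hosts held 2 higher and 4 lower (22.2 and 44.4%, median -0.73), and the 16 other lncRNAs 4 and 4 (25% each, median -0.68).

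**Figure D4:**
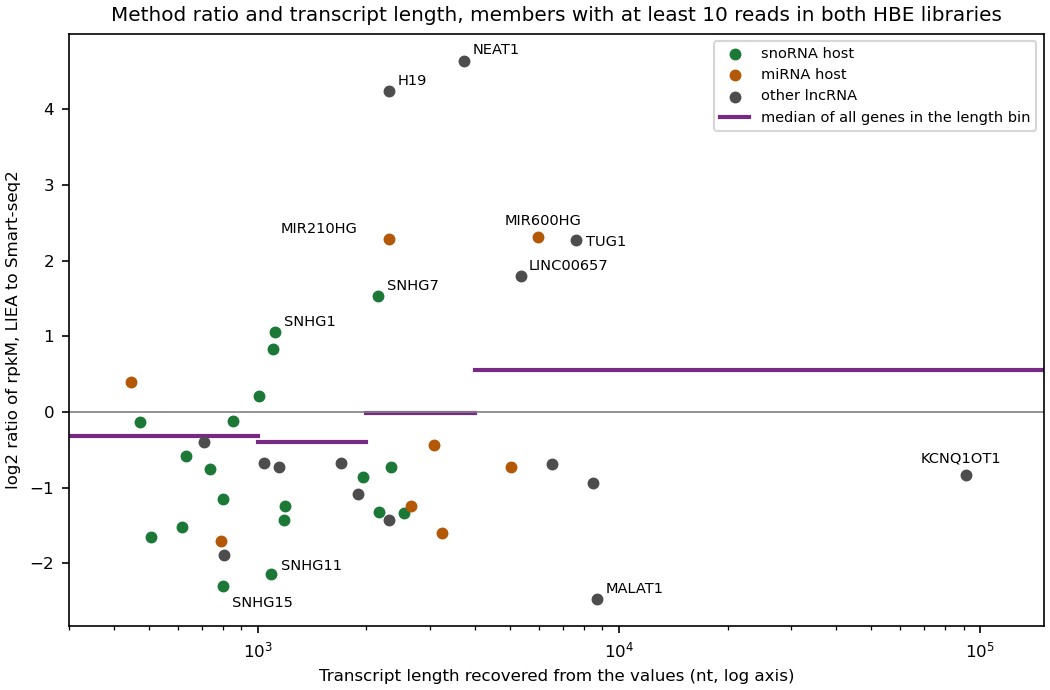
log2 ratio of rpkM, LIEA to Smart-seq2, against transcript length in nt (log axis) for the 42 members with at least 10 reads in both HBE libraries. Horizontal bars are medians of all genes in the same length range. Of the members, 29 sit below the bar of their length range and 13 above it, and the medians of all genes rise from -0.32 under 1000 nt to 0.56 at 4000 nt or more.

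Length was looked at because the medians of all genes moved with it, as the plot of method ratio against length shows. Where a gene had 10 or more reads in each HBE library, the median log2 ratio of LIEA to Smart-seq2 was -0.32 under 1000 nt and -0.39 from 1000 to 2000 nt. It was -0.01 from 2000 to 4000 nt and 0.56 at 4000 nt or more. The members' medians in the same ranges were -0.95 (12 members), -0.73 (11), -0.73 (11) and -0.71 (8), and 29 of the 42 members lay below the median of all genes of their range. Members with at least 10 reads in a library had a median length of 1894 nt and a median GC content of 44.4%, against 3050 nt and 48.2% over all genes. Across the 42 members Spearman's rho of the ratio with length was 0.14 and with GC content 0.13, and across all genes 0.28 and 0.39. These are descriptions over genes of the same 2 libraries.

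Many snoRNA hosts are known as terminal oligopyrimidine genes, whose transcripts begin with a C and a run of pyrimidines. The 40 bases around the annotated start (15 before it and 25 from it, RefSeq, GRCh38.p14) were searched on the gene's strand for C followed by at least 4 C or T, beginning within 5 bases of the start. The run stood in 9 of 18 snoRNA hosts with an entry, 6 of 17 miRNA hosts and 3 of 12 other members, beside 25.2% of all 27305 genes and 79.7% of 69 cytosolic ribosomal protein genes. In 4 members it began exactly at the start, and these are shown with the run in capitals: SNHG4 (chr5:139274086-139274125, plus), SNHG5 (chr6:85678709-85678748, minus), SNHG12 (chr1:28581849-28581888, minus) and ZFAS1 (chr20:49278627-49278666, plus).
SNHG4: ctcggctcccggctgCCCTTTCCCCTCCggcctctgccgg
SNHG5: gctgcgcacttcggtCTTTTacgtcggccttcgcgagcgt
SNHG12: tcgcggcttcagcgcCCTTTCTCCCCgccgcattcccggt
ZFAS1: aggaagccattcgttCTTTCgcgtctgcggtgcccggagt
The 4 hosts did not share 1 pattern of level. From HBE to A549 their log2 ratios were -0.77, 3.72, -1.17 and 0.38, and from Smart-seq2 to LIEA 0.83, -1.65, -0.75 and 0.21, in the order shown.

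Genes for proteins that work with these RNAs were all listed. The counts in this and the next paragraph stand beside the following shares of all genes. In A549 against HBE, 20.4% were at least 2-fold higher and 21.0% at least 2-fold lower. In LIEA against Smart-seq2 the shares were 28.5 and 21.7%. The lists are short and were not tested against these shares. Of 8 snoRNP protein genes, 1 was at least 2-fold higher in A549 than in HBE (NOP56, log2 ratio 1.02) and 1 lower (NHP2L1, -1.99), with a median of 0.06. In LIEA against Smart-seq2 1 was higher (FBL, 1.38) and 5 lower, the largest being NOP58 (-2.52) and DKC1 (-1.81), with a median of -1.28. Of 10 nonsense-mediated decay genes, 0 were at least 2-fold higher in A549 and 2 lower (UPF1, -1.41, among them), with a median of -0.40. In LIEA against Smart-seq2 4 were higher and 0 lower (UPF1, 4.24, and SMG6, 1.79, the largest), with a median of 0.33. By method, the median of the snoRNP protein genes was below 0 as that of the snoRNA hosts was. The median of the decay genes was above 0. These ratios compare 2 methods on RNA of the same cell line, and a link between these genes and the hosts was not tested.

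Among 9 paraspeckle protein genes, the partners of NEAT1, 0 were at least 2-fold higher in A549 and 2 lower (RBM14, -1.44, and PSPC1, -1.01), with a median of -0.80. In LIEA against Smart-seq2 1 was higher (DAZAP1, 1.63) and 2 lower (HNRNPK, -1.60, the largest of these), with a median of -0.52. NEAT1 and the median of these genes had the same sign between the lines and opposite signs by method. A link between them was not tested. Of 7 miRNA processing genes, 0 were higher and 3 lower in A549 (AGO1, -1.64, and DROSHA, -1.57, the largest), with a median of -0.90. In LIEA against Smart-seq2 3 were higher (DROSHA, 2.30, and AGO1, 1.77, the largest) and 0 lower, with a median of 0.71. Of 5 Pumilio and Polycomb genes, the partners of NORAD and TUG1, 0 were higher and 1 lower in A549 (EED, -1.15, followed by EZH2, -0.95), with a median of -0.31. In LIEA against Smart-seq2 2 were higher and 1 lower (PUM2, 2.21, and EED, -1.46, the largest), with a median of 0.67.

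Reads of some members may belong to other genes. The sources used here do not say whether reads were counted by strand, and exons of 23 members overlap those of another listed gene that is no small RNA, on the opposite strand for 18 of them. ZFAS1 overlaps ZNFX1 over 249 nt and OIP5-AS1 overlaps OIP5 over 577 nt on the opposite strand. Longer such overlaps are SNHG8 with PRSS12 (2206 nt), EPB41L4A-AS1 with EPB41L4A (2200 nt), SNHG6 with MCMDC2 (1488 nt) and SNHG7 with FAM69B (663 nt). In HBE LIEA, A549 LIEA and HBE Smart-seq2, PRSS12 had 103, 4 and 20 reads and EPB41L4A 29, 155 and 90. MCMDC2 had 6, 5 and 49 and FAM69B 133, 140 and 30. Their part in the ratios of these hosts was not tested. SNHG3 overlaps RCC1 over 105 nt and SNHG4 overlaps MATR3 over 176 nt on the same strand. H19, NEAT1, MALAT1, UCA1, MIR205HG, TUG1, SNHG5 and SNHG15 have no such overlap with a listed gene in the annotation used.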

How the data were processed

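PolyA+ mRNA of the HBE and A549 cell lines was sequenced in 3 libraries. The deposited values are log2 rpkM per gene. To make them the authors aligned reads by FANSe2 against the RefSeq-RNA sequences, took all splice variants of a gene together, and scaled by length and library total. The submitters' notes name hg19. Unlisted genes were taken as having 0 reads. Reads were recovered from the values. The total of HBE LIEA was the largest whole number that made lengths whole for over 70% of 300 genes. The totals of A549 LIEA and HBE Smart-seq2 were scaled from it by the most common log2 difference of gene values to HBE LIEA. With these totals 99.99% of genes had whole reads (relative tolerance 2e-08). A common factor of reads and length was chosen by annotated length. It leaves levels and ratios unchanged, but the read numbers of 5 members could be smaller. Ratios are of read shares, with a floor of 3 reads where a library had fewer, for genes with at least 10 reads in 1 of 2 libraries, and 2-fold was the limit for a count. For a named member with 1 to 3 reads, the ratio without the floor is printed.

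Intervals are exact (Clopper-Pearson for ratios, Poisson for summed reads). They cover counting error only, and amplified reads without molecular identifiers are not independent molecules. With 1 library per condition no test was run. Members, related genes and marker lists were chosen with earlier results of these data known. Named with full values were members with at least 100 reads in a library and, of these, the 10 largest ratios of each comparison. HOTAIRM1, MEG3, MIAT, MIR31HG and SNHG9 and other ratios outside these 10 were named after their values were seen. Of each related list the 2 largest ratios are named, except 1 that is not reported here. Positions are from GENCODE 44 lifted to GRCh37, for 57 members. Promoter entries were found for 47 members. Python 3.11.15, numpy 2.4.6, pandas 2.3.3, scipy 1.17.1 and BLAST+ 2.17.0 were used. The scripts' recovery step was tested on simulated data. Alternatives were the filter, the fold, the floor, centring, TPM, pseudocounts of 1 and 0.1, the smallest whole reads and totals without the MTRNR2L genes.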

Additional observations from a re-analysis of the deposited data

How the results depend on the processing

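Of 129 alternative values, 116 were classed as staying near the reported value and 13 as moved. A count stayed if it was within 1.5 times the reported count. Medians classed as staying could still differ in size. The members' median log2 ratio of A549 to HBE, reported as -0.30, was -0.70 with at least 100 reads in 1 library. It was -0.14 after centring on the median of all genes. The medians over all genes under these settings were -0.24 and 0.03. A count could only stay or move, and no median or single ratio changed its sign. For A549 against HBE, the members at least 2-fold higher numbered 3 with at least 10 reads in both libraries (13.4% of all genes) and 3 with at least 100 reads in 1 library (15.2%), and 5 were lower by a fold of 3 (11.2%). For LIEA against Smart-seq2, 29 members were lower by a fold of 1.5 (32.7% of all genes) and 9 by a fold of 3 (9.70%). Without MALAT1 and NEAT1 the summed shares were 0.334, 0.135 and 0.288% in HBE LIEA, A549 LIEA and HBE Smart-seq2, and with totals without the MTRNR2L genes the last share was 0.982%. Among single members 4 of 40 alternatives moved, all in the same direction. Genes with at least 10 reads in both libraries had a median log2 ratio of -0.16 for A549 to HBE and 0.10 for LIEA to Smart-seq2. Centring on it gave 8 higher and 13 lower members between the lines (22.9 and 17.3% of all genes) and 7 and 19 between the methods (26.5 and 24.3%). TPM gave 7 and 15 (18.2 and 25.5%), and 9 and 16 (32.2 and 17.0%). A floor of 1 read and leaving out LINC00152 and MIR4435-1HG, both chosen after seeing the data, moved no count past 1.5 times. No paired analysis was possible because only 1 library for each condition was used here. Depth limits members with under 10 reads.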
